A study of Mus musculus with 34 samples.

Results

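The genes described here encode the 3 main groups of phase II conjugation enzymes in the mouse: the UDP-glucuronosyltransferases (Ugt1a, Ugt2a, Ugt2b and Ugt3a genes), the glutathione S-transferases (the cytosolic Gsta, Gstm, Gsto, Gstp, Gstt and Gstz classes, the mitochondrial and peroxisomal Gstk class and the membrane-bound Mgst genes) and the sulfotransferases (Sult genes). The rule that defines them reads gene symbols: they are the protein-coding genes of these families among 51368 genes quantified. The symbol patterns matched 74 genes, of which 7 were not protein coding, which left 67: 21 Ugt genes, 25 Gst and Mgst genes and 21 Sult genes. Of the 67, 48 passed the filter on low counts and could be tested.

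Liver RNA of 1 wild-type C57BL/6J mouse aged 12 weeks was sequenced in 33 libraries, and heart RNA in 1 further library. The series asked how RNA-seq measurements depend on the way ribosomal RNA (rRNA) is removed, on fragment length and on PCR ramp rate. PolyA selection (9 libraries, TruSeq Stranded mRNA kit, batch 1) captures transcripts by their poly(A) tail, rRNA pull-down (9 libraries, TruSeq Stranded Total RNA kit, batch 2) removes probe-bound rRNA, and rRNA digestion (9 libraries, Ribo-Zero Plus, batch 2) degrades it enzymatically. Each of these methods was run once at each combination of 3 ramp rates (slow, medium, fast) and 3 fragment lengths (short, medium, long) from 200 ng of RNA. Unselected libraries, from which no rRNA was removed, were made from 20 ng with the slow ramp and medium fragments: 3 from liver in batch 1, 3 from liver in batch 2 and the 1 from heart in batch 1. All libraries were amplified for 13 PCR cycles, and the labels name no separate animals or cultures. Because every liver library is a preparation of the same RNA, p-values measure technical spread only, and no comparison speaks of differences between animals. PolyA libraries were made in batch 1 and rRNA-removal libraries in batch 2, so these methods are compared directly and also relative to the unselected libraries of their own batch.

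Totals were 19.9 to 21.7 M counts (M, mega) in the unselected liver libraries, 23.5 to 41.4 M with polyA selection, 20.0 to 30.2 M with digestion and 23.4 to 39.2 M in 8 pull-down libraries. The pull-down library with slow ramp and long fragments held only 1.13 M counts and stood apart: 32 of the 48 tested genes were below the range of the other 8 pull-down libraries in it, 5 above and 11 within. Because it also enters the estimate of spread shared by all fits, counts of the 48 genes called are given without it too where they differ. The fits under library totals, those on the compared libraries alone and those relative to the unselected libraries of the same batch were not repeated without it. The labels name the mouse male in one field and female in another; in the liver groups the female transcript Xist averaged 0.0389 to 0.212 normalised CPM (counts-per-million, scaled by trimmed-mean factors), while the Y-linked gene Ddx3y averaged 38.1 to 57.2. The hepatocyte markers Alb, Ttr, Apoa1, Cyp2e1, Cps1 and Serpina1c were all detected in liver.

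As background, UDP-glucuronosyltransferases sit in the endoplasmic reticulum and attach glucuronic acid from UDP-glucuronic acid to bilirubin, steroids, bile acids and drugs. Glutathione S-transferases join glutathione to electrophiles, and sulfotransferases transfer sulfate from the donor PAPS to phenols, steroids and bile acids. Liver is the main site of all of these reactions, whose products are more soluble and leave the cell through transporters.

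The Ugt1a genes share most of their sequence, and they held the largest differences between the library methods. All 9 lie on the plus strand at chr1:88055388-88220002 (GRCm38), each with its own first coding exon spliced to the same following exons, which begin at chr1:88215044-88215175. The junctions into that shared exon are shown for 6 of the genes, with the last 40 bases of the exon before it in lower case and the first 20 bases of the shared exon in capitals, 5′ to 3′, read from GENCODE M21 transcripts.
Ugt1a1: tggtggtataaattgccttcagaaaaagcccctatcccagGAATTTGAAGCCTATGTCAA
Ugt1a2: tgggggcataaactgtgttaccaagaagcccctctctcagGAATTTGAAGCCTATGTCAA
Ugt1a5: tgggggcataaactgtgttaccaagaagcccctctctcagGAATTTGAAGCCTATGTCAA
Ugt1a6a: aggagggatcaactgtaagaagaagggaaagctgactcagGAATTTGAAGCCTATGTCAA
Ugt1a6b: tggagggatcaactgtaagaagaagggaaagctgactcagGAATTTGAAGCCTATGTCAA
Ugt1a7c, own exon: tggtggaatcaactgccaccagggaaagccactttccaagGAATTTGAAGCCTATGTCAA
Ugt1a7c, longer transcript: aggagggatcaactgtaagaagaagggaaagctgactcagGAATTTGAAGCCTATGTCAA
Ugt1a2 and Ugt1a5 differed at 0 of these 40 bases, Ugt1a6a and Ugt1a6b at 1, and Ugt1a6a and Ugt1a1 at 20. Annotated Ugt1a7c transcripts are of different kinds: one uses Ugt1a7c's own exon (chr1:88095064-88095978), whose 40 bases differ from those of Ugt1a6a at 20, and a longer one uses the Ugt1a6a exon (chr1:88138473-88139331) and has the same junction as Ugt1a6a. Of all 31-base stretches in its transcripts, 44.3% were found in no other gene for Ugt1a7c, 47.0% for Ugt1a6a and 15.8% for Ugt1a6b. Of the 4 annotated Ugt1a7c transcripts, 2 run 998 bases past the furthest end of the other 8 genes, and the others end before it. Counts of single Ugt1a genes are therefore uncertain, since reads from shared sequence are divided between them by a statistical model.

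In unselected liver, the glutathione transferases held the highest levels per kilobase of exon. Gstm1 stood at 897 ± 32.1 normalised CPM per kilobase (SD, n = 6), followed by Gstp1 at 605 ± 23.7, Mgst1 at 476 ± 10.3 and Ugt2b5 at 293 ± 9.40, and the ranges of these 4 did not overlap. Gstm1, Gstp1 and Mgst1 are abundant liver glutathione transferases of the mu, pi and membrane-bound classes. With the longest transcript in place of all exons as the length, Gstp1 (1141) lay above Gstm1 (1025) and Mgst1 stood at 820. With all exons, next came Ugt2b36 (154), Ugt2b1 (137), Ugt1a1 (135), the bilirubin-conjugating enzyme, and Gsta3 (132), each overlapping its neighbour. With the longest transcript Gsta3 (205) and Sult2a8 (178) lay above Ugt2b36 (168). Sult2a8, a bile acid sulfotransferase of male-predominant expression in mouse liver, was the highest Sult gene at 116 ± 9.89 over all exons, followed by the phenol sulfotransferase Sult1a1 at 81.2 ± 2.66.

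The 19 genes under the filter had few or no counts in liver. Over all 33 liver libraries, 8 of them had a total of 0 counts (Sult1c1, Sult2a3, Sult2a4, Sult2a5, Sult2a6, Sult3a2, Sult6b1 and Ugt2a1). The female-predominant hydroxysteroid sulfotransferases Sult2a1 and Sult2a2 had totals of 3 and 11 counts, the amine sulfotransferase Sult3a1 had 1, and the estrogen sulfotransferase Sult1e1 had 11. The highest totals in this group were 91 counts for Mgst2 and 45 for Gsto2. Together the 67 genes made up 1.25% and 1.28% of counts outside rRNA genes and Lars2 in the unselected liver libraries of batches 1 and 2. The share was 1.72% with polyA selection, 1.41% with pull-down (1.44% without the low-depth library) and 1.32% with digestion.

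Ugt1a6a and Ugt1a7c exchanged places between unselected and selected libraries. Ugt1a7c had 100, 105 and 107 normalised CPM in the unselected libraries of batch 1 and 107, 109 and 121 in those of batch 2. With polyA selection it ranged from 4.28 to 6.67 (median 5.55), with digestion from 6.20 to 7.42 (median 6.85), and with pull-down from 6.64 to 13.1 (median 7.23), the highest being the low-depth library. Every selected library lay below every unselected one. The log2 fold changes from unselected liver of the same batch were -4.23 ± 0.11 (SE) for polyA, -3.92 ± 0.12 for pull-down and -4.02 ± 0.11 for digestion, with edgeR adjusted p of 3.5e-23, 1.4e-21 and 3.0e-22. Without the low-depth library the pull-down value was -3.94.

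Ugt1a6a, the phenol-conjugating Ugt1a enzyme, went the other way. It had 27.4, 31.7 and 37.2 normalised CPM in unselected batch 1 and 30.3, 30.4 and 37.3 in unselected batch 2, against 113 to 135 with polyA selection (median 124), 88.9 to 99.3 with digestion (median 92.0) and 72.7 to 142 with pull-down (median 127). Every selected library lay above every unselected one. The pull-down range held those of polyA and digestion only through the low-depth library, at 72.7. In the other 8 pull-down libraries Ugt1a6a stood at 117 to 142, above the whole digestion range. Its log2 fold changes were 1.93 ± 0.12, 1.93 ± 0.12 and 1.502 ± 0.12 for polyA, pull-down and digestion, and 1.98 for pull-down without the low-depth library. Ugt1a7c made up 76.5% ± 2.61 and 77.4% ± 2.95 (SD, n = 3 each) of the counts of the pair in the 2 unselected batches, and 4.24% ± 0.724, 6.42% ± 3.33 and 6.78% ± 0.616 (n = 9 each) after polyA selection, pull-down and digestion. The pull-down share was 5.32% ± 0.432 (n = 8) without the low-depth library.

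Summed before the fit, an alternative chosen after seeing the data, Ugt1a6a plus Ugt1a7c differed from unselected by -0.09 ± 0.08 for polyA (adjusted p 0.402), by -0.13 ± 0.09 for pull-down (adjusted p 0.2504) and by -0.54 ± 0.08 for digestion (adjusted p 2.1e-05). The sum of the pair passed the test for digestion and not for polyA or pull-down. The sum of all 9 Ugt1a genes rose by 0.25 ± 0.08 with polyA (adjusted p 0.0118) and by 0.24 ± 0.08 with pull-down (adjusted p 0.0249), and differed by -0.11 ± 0.08 with digestion (adjusted p 0.421). The pull-down values were -0.08 for the pair (adjusted p 0.273) and 0.31 for all 9 genes (adjusted p 1.2e-07) without the low-depth library.

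**Figure D1:**
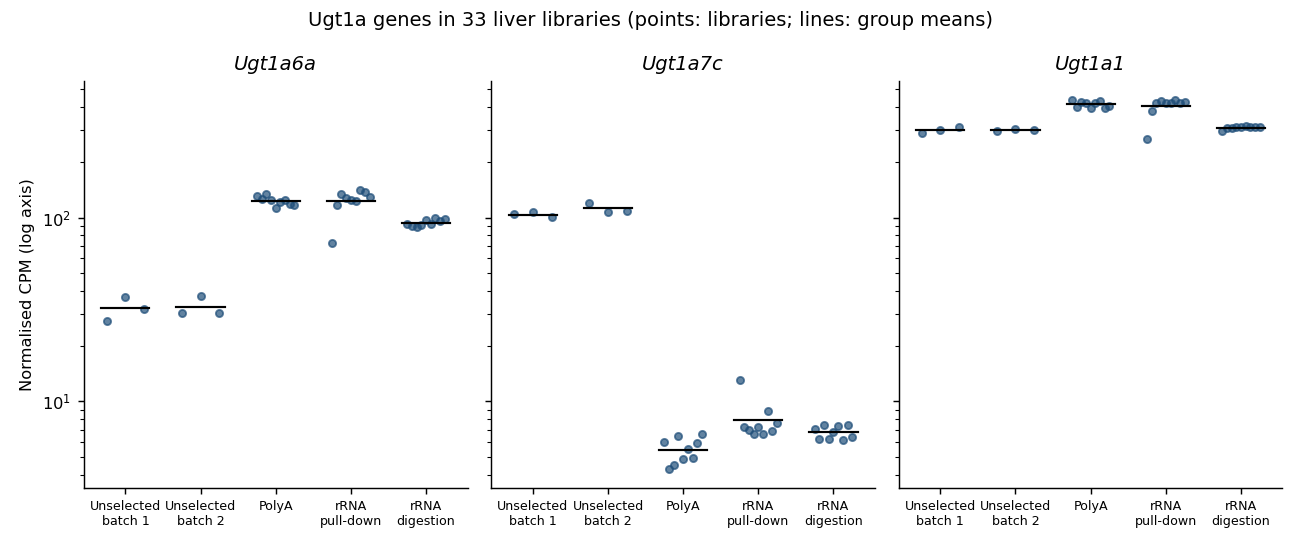
Normalised CPM (log axis) of Ugt1a6a, Ugt1a7c and Ugt1a1 in each of the 33 liver libraries, by group; points are libraries and lines are group means. Ugt1a7c lies at 100 to 121 in unselected libraries and at 4.28 to 13.1 in selected ones, Ugt1a6a moves the opposite way, and the lowest pull-down point of Ugt1a6a and Ugt1a1 is the low-depth library.

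Among the other Ugt1a genes, the bilirubin-conjugating Ugt1a1 was the highest. Ugt1a1 rose from 299 ± 10.0 normalised CPM in unselected batch 1 to 415 ± 16.1 with polyA (log2 fold change 0.49 ± 0.08, adjusted p 8.0e-06). From 299.6 ± 2.46 in unselected batch 2 it rose to 402 ± 52.8 with pull-down (0.45 ± 0.08, adjusted p 5.3e-05; 419 ± 17.5 and 0.52 without the low-depth library), while digestion gave 309 ± 4.85 (0.06 ± 0.08, adjusted p 0.694). Ugt1a2 fell from 4.18 to 6.80 in unselected batch 1 to 0.186 to 0.756 with polyA (log2 fold change -3.34 ± 0.36, adjusted p 3.6e-09), and the ranges did not overlap. Ugt1a2 has the same junction as Ugt1a5, and the sum of the pair differed by only 0.14 ± 0.07 (adjusted p 0.118). Ugt1a8 had 6 to 25 counts in each unselected batch 1 library and 0 to 2 in each polyA library, although the polyA libraries were deeper (adjusted p 4.2e-11). At so few counts its size of change is not given. The junction of Ugt1a8 differs from that of the Ugt1a7c own exon at 3 of 40 bases. How reads were divided between these genes was not tested.

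Nearly all glutathione transferases were higher with polyA selection. Against unselected liver of batch 1, 31 of the 48 genes passed the test, 28 higher and 3 lower, beside 50.4% of all 15422 genes tested (25.6% higher and 24.8% lower). The median log2 fold change of the 48 was 0.52. Of 22 Gst and Mgst genes tested, 20 rose and 0 fell; of 19 Ugt genes 5 rose and 3 fell; and of 7 Sult genes 3 rose and 0 fell. Without the low-depth library 35 passed, 32 higher and 3 lower (52.0% of all genes), with 9 of the Ugt genes higher. The share called among the 48 (31 genes) was not far from that of all genes, while 28 of the calls were in 1 direction.

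Gstm1, the highest of the mu class, had 1338, 1349 and 1384 normalised CPM in unselected batch 1 and 2019 to 2464 with polyA (median 2211), a log2 fold change of 0.71 ± 0.06 (adjusted p 1.9e-11). Gstp1, of the pi class, went from 928, 974.1 and 974.5 to 1691 to 2021 (median 1796), or 0.86 ± 0.05 (adjusted p 6.9e-15). Mgst1 went from 934.3, 934.7 and 972 to 1494 to 2113 (median 1606), or 0.81 ± 0.09 (adjusted p 2.0e-08). In each of these genes every polyA library lay above every unselected one.

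The alpha class, which also reduces lipid peroxides, rose with all 4 genes: Gsta1 by 1.14 ± 0.14, Gsta2 by 0.93 ± 0.10, Gsta4 by 0.73 ± 0.10 and Gsta3 by 0.67 ± 0.11 on the log2 scale. Gsta1 shares nearly all of its sequence with copies (7.1% of its 31-base stretches are its own), and the sum of Gsta1 and Gsta2 rose by 0.97 ± 0.10 (adjusted p 1.3e-09). In the theta class Gstt2 rose by 0.87 ± 0.06, Gstt1 by 0.80 ± 0.07 and Gstt3 by 0.75 ± 0.08. Gstk1, the mitochondrial and peroxisomal enzyme, rose by 0.83 ± 0.08, the omega-class Gsto1 by 0.72 ± 0.07 and Gstz1, maleylacetoacetate isomerase of tyrosine breakdown, by 0.65 ± 0.08. The 2 genes that did not pass were Gstm5 (0.51 ± 0.22, adjusted p 0.0513) and Gstp2 (0.29 ± 0.45, adjusted p 0.622). Among the sulfotransferases Sult1a1 rose by 0.69 ± 0.07, while Sult2a8 differed by 0.16 ± 0.19 (adjusted p 0.4995).

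With pull-down, 27 of the 48 genes passed against unselected batch 2, 24 higher and 3 lower, beside 32.8% of all genes (17.5% higher and 15.3% lower). Of the Gst and Mgst genes 17 rose and 1 fell, also without the low-depth library. Gstp1 had 875, 931 and 938 normalised CPM in unselected batch 2 and 1290 to 1540 with pull-down (median 1425), a log2 fold change of 0.58 ± 0.05 (adjusted p 7.8e-11). Every pull-down library lay above every unselected one. Gstm1 did not pass the test: its 1250, 1289 and 1316 in unselected batch 2 lay within the 1132 to 1445 of the pull-down libraries (-0.03 ± 0.06, adjusted p 0.773). Gstm4, a mu-class neighbour on chromosome 3, fell by 0.88 ± 0.08 on the log2 scale, from 40.6, 42.7 and 44.0 to 19.6 to 26.4 (median 23.1, adjusted p 2.4e-10). Mgst3 rose by 0.89 ± 0.17 and Gsta4 by 0.75 ± 0.10. Fitted on the 2 groups compared alone, 13 of the 48 genes passed, beside 20.0% of all genes; without the low-depth library 32 passed, 29 of them higher, beside 35.0%. The log2 fold changes without it were 0.56 for Gstp1, -0.08 for Gstm1 (adjusted p 0.114), -0.87 for Gstm4, 0.84 for Mgst3 and 0.79 for Gsta4.

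With digestion, 12 of the 48 genes passed against unselected batch 2, 2 higher and 10 lower, beside 14.7% of all genes (7.06% higher and 7.66% lower); without the low-depth library 13 passed, 3 higher and 10 lower (17.7% of all genes). The 2 higher genes were Ugt1a6a and Gsto1 (0.26 ± 0.07, adjusted p 0.0108). Besides Ugt1a7c, the lower genes included all 4 alpha-class transferases. Gsta3 had 577.8, 581 and 583 normalised CPM in unselected batch 2 and 401 to 471 with digestion (median 414), without overlap, a log2 fold change of -0.47 ± 0.10 (adjusted p 0.0021). Gsta2 fell by 0.57 ± 0.10, Gsta1 by 0.50 ± 0.14 and Gsta4 by 0.33 ± 0.10. Some of these calls rested on single libraries: without unselected batch 2 replicate 2 Gsta1 had an adjusted p of 0.130, without replicate 3 Gsta4 had 0.215, and without replicate 1 Gsto1 had 0.1500. Gstm1 (-0.01 ± 0.06), Sult1a1 (0.00 ± 0.07) and Ugt2b5 (0.00 ± 0.14) did not pass.

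**Figure D2:**
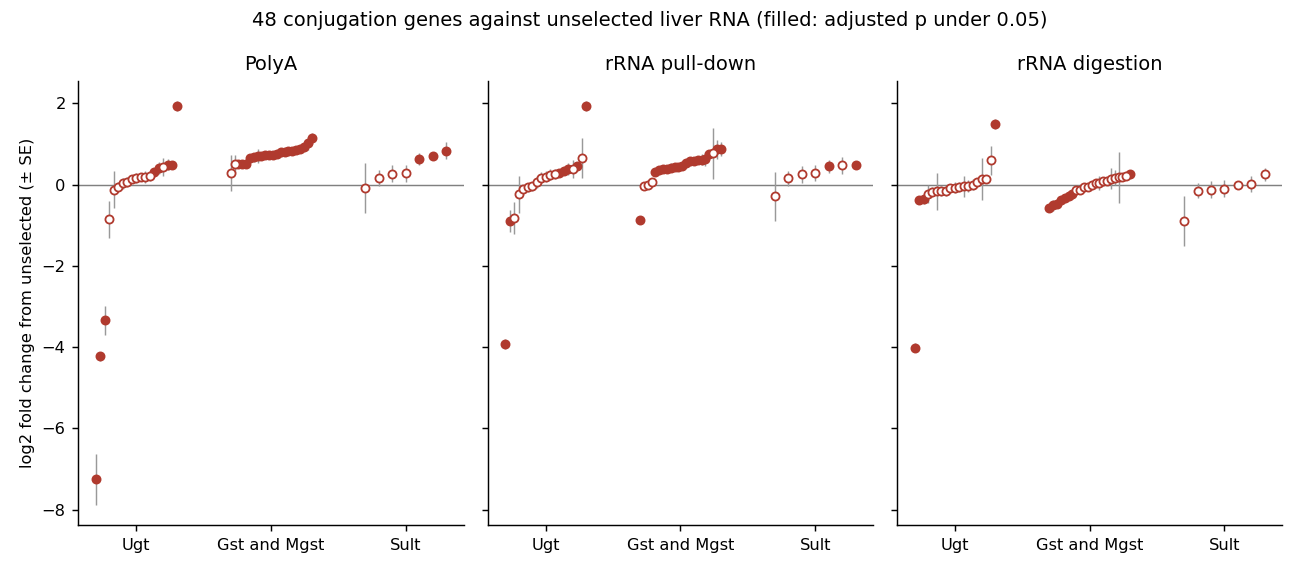
log2 fold change from unselected liver of the same batch (± SE) for the 48 tested genes, by family and method; filled points have an adjusted p under 0.05. Gst and Mgst genes lie above 0 with polyA (20 of 22 called higher) and mostly above 0 with pull-down (17 of 22), and straddle 0 with digestion; the low points in the Ugt columns are Ugt1a genes.

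Set against each other, the methods differed in most of these genes, as in most genes overall. Digestion against pull-down, both in batch 2, gave 42 of 48 genes called, 4 higher and 38 lower, beside 70.7% of all genes (34.7% higher and 36.0% lower); without the low-depth library 45 were called, 4 higher and 41 lower (71.8% of all genes). Of the Gst and Mgst genes 20 were lower with digestion and 1, Gstm4, was higher (0.76 ± 0.04, adjusted p 4.1e-16). The log2 difference was -1.12 ± 0.06 for Gsta1 and -1.08 ± 0.05 for Gsta4. These 3 values were 0.75, -1.13 and -1.11 without the low-depth library, with the same counts of 20 and 1. With library totals in place of trimmed-mean scaling, which put the median of all genes at 0.55, the split was 25 higher and 7 lower, beside 73.9% of all genes higher and 7.96% lower. PolyA against digestion gave 42 called, 38 higher and 4 lower (80.6% of all genes, 38.4% higher and 42.2% lower), with all 22 Gst and Mgst genes higher, and 43 called without the low-depth library, 39 higher and 4 lower (81.6% of all genes). PolyA against pull-down gave 32 called, 24 higher and 8 lower (72.6% of all genes, 36.4% higher and 36.2% lower), and 35 higher and 2 lower with library totals, where the all-gene median stood at 0.32 and 58.6% of all genes were higher and 21.6% lower. Without the low-depth library polyA against pull-down gave 34, 23 higher and 11 lower (74.1% of all genes). Taken relative to the unselected libraries of the same batch, polyA against digestion gave 28 called, 26 higher and 2 lower, beside 42.1% of all genes (19.3% higher and 22.9% lower), with a median over the 48 of 0.51 in place of 0.58. Taken in the same way, polyA against pull-down gave 16 called, 14 higher and 2 lower, beside 29.1% of all genes (13.1% higher and 16.0% lower).

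Under library totals the median of all genes stood at 2.67, 2.31 and 2.85 (log2) for polyA, pull-down and digestion against unselected. Under that scaling digestion gave 47 of the 48 genes higher and 1 lower, beside 97.9% of all genes higher and 0.272% lower. Directions then differed from those under trimmed-mean scaling in 9 of the 12 genes called for digestion, 2 of 27 for pull-down and 0 of 31 for polyA against unselected. The same held for 21 of 42 genes for digestion against pull-down, 3 of 32 for polyA against pull-down and 5 of 42 for polyA against digestion. Library totals shift all genes together. Taken relative to the median of all genes under that scaling, 0 of the called genes changed direction in any of the 6 comparisons. Under DESeq2 or with rRNA genes and Lars2 removed, 0 of the called genes in these 6 comparisons changed direction.

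Other lists of the same liver RNA moved in these comparisons, and the part of each in the results was not tested. Of all 15422 genes tested, 3944 rose and 3825 fell with polyA, 2692 and 2360 with pull-down, and 1089 and 1181 with digestion. Without the low-depth library these were 4085 and 3913, 2925 and 2464, and 1360 and 1358 of 15384 genes. With polyA, 5 of 6 hepatocyte markers rose and 1 fell, while 4 of 5 Kupffer cell markers, 4 of 5 sinusoidal endothelial markers and 5 of 5 stellate cell markers fell. With pull-down, 4 of 6 hepatocyte, 4 of 5 Kupffer, 5 of 5 sinusoidal and 4 of 5 stellate markers rose. With digestion, 4 of 5 Kupffer, 2 of 5 sinusoidal and 1 of 5 stellate markers fell, and of 6 hepatocyte markers 1 rose and 1 fell. Of 5 cholangiocyte markers 1 rose with each method, and 1 fell with polyA and 1 with pull-down. Without the low-depth library 6 of 6 hepatocyte markers rose with pull-down, and with digestion 1 rose and 5 fell; the counts of the other marker lists named here were the same. Along the pathway, of 14 genes that supply the cofactors (such as Ugdh, which makes UDP-glucuronic acid, and Papss1, which makes PAPS) 8 rose and 1 fell with polyA, 8 rose and 3 fell with pull-down (9 and 3 without the low-depth library), and 3 rose and 1 fell with digestion (2 fell without the low-depth library). Ugdh rose by 0.47 ± 0.09 and Papss1 by 0.48 ± 0.17 with polyA, and Slc35d1, the UDP-glucuronic acid transporter of the endoplasmic reticulum, fell by 0.43 ± 0.07. All 10 phase I partner genes tested rose with polyA, 4 rose with pull-down and 1 with digestion; without the low-depth library 8 rose with pull-down, and with digestion 1 rose and 3 fell. Of 12 regulators 3 rose and 3 fell with polyA, 2 rose and 3 fell with pull-down, and 5 rose and 0 fell with digestion (4 and 3, 2 and 3, and 6 and 1 without the low-depth library); the constitutive androstane receptor Nr1i3 rose by 0.75 ± 0.04.

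Between the 2 batches of unselected liver 0 of 48 genes passed the edgeR test (0.0% of all genes), 2 (Gstm6 and Gstp2) reached an unadjusted p under 0.05, and DESeq2 called 0 of them (0.0584% of all genes higher and 0.0584% lower). Between fast and slow ramps 0 of 48 genes passed the edgeR test (0.00692% of all genes), 2 (Mgst3 and Gstt2) reached an unadjusted p under 0.05, and DESeq2 called 0 (0.0346% of all genes).

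Measured levels differed with fragment length, with the most calls in polyA libraries. Over the 3 methods together, long against short fragments gave 19 of 48 genes called, 13 higher and 6 lower, beside 46.3% of all 14454 genes tested (25.7% higher and 20.5% lower); with library totals the split was 5 higher and 14 lower (15.4% and 30.7% of all genes), and without the low-depth library 23 passed, 17 higher and 6 lower (51.5% of all genes). Within polyA libraries 26 passed, 17 higher and 9 lower (52.9% of all genes, 26.5% higher and 26.4% lower); without the low-depth pull-down library 31 passed, 20 higher and 11 lower (55.1% of all genes). Of 19 Ugt genes 11 were higher and 0 lower in long-fragment polyA libraries, and of 7 Sult genes 4 were higher and 1 lower. Of 22 Gst and Mgst genes 8 were lower, 2 were higher and 12 did not pass. Without the low-depth library 13 Ugt genes were higher and 0 lower, and 3 Gst and Mgst genes were higher and 10 lower. With all pull-down libraries kept, the 26 genes called within polyA fell to 14 without the medium-ramp (43.0% of all genes) and 15 without the fast-ramp polyA libraries (37.2%).

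Base composition varies within and between the families. The first 60 coding bases of 4 genes are shown 5′ to 3′ on the coding strand, with G and C in capitals, from GENCODE M21 on GRCm38: Sult1d1 at chr5:87566124-87566183, Sult2a8 at chr7:14427860-14427919, Gstm1 within chr3:108017403-108017775 and Gstp1 within chr19:4037374-4037863, all on the minus strand and the last 2 across an intron.
Sult1d1: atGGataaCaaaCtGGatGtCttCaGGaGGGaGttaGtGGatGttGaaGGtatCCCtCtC
Sult2a8: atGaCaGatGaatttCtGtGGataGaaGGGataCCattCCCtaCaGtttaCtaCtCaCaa
Gstm1: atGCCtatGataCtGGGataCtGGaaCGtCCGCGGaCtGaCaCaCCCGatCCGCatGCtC
Gstp1: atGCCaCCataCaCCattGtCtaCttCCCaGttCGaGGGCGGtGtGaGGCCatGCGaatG
G and C make up 27, 23, 34 and 33 of these 60 bases in the order shown. Over all annotated transcripts the GC content was 33.5% for Sult1d1, 37.8% for Sult2a8, 53.9% for Gstm1 and 55.8% for Gstp1. Ugt2 genes lay between 39.3% and 41.6%, Ugt1a genes between 45.6% and 47.5%, mu-class genes between 49.4% and 53.9% and pi-class genes between 54.3% and 55.8%. Other families overlap these, with alpha-class genes between 43.3% and 49.2%, Sult1 genes between 33.5% and 48.6% and Sult2 genes between 37.8% and 54.0%, and Sult1d1 and Sult2a8 have the lowest value of the Sult1 and Sult2 genes.

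Sult1d1, which sulfates catecholamines, showed the largest length effect among the genes called in polyA libraries. It averaged 31.3 ± 3.36 normalised CPM with short, 37.1 ± 3.04 with medium and 65.5 ± 1.47 with long fragments (SD, n = 3 each), and the 63.8 to 66.4 of the long libraries lay above the 29.3 to 35.2 of the short ones (log2 fold change 1.05 ± 0.09, adjusted p 5.7e-09). With digestion it averaged 41.2 ± 0.747, 42.6 ± 0.337 and 44.9 ± 0.707 (0.14 ± 0.09, adjusted p 0.467). With pull-down the long libraries spread from 21.2, the low-depth library, to 65.0, against 42.9 to 45.4 with short fragments (0.53 ± 0.10, adjusted p 0.00026; 0.60 ± 0.05, adjusted p 5.4e-09, without the low-depth library).

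Sult2a8 followed the same order in polyA libraries, with 318 ± 34.9, 367 ± 26.4 and 574 ± 22.3 normalised CPM (log2 fold change 0.83 ± 0.18, adjusted p 0.00036), and with digestion 346 ± 3.60, 364 ± 3.00 and 386 ± 3.15 (0.18 ± 0.17, adjusted p 0.662). Mgst1 went from 1524 ± 36.6 and 1597 ± 69.5 to 2038 ± 76.9 in polyA libraries (0.40 ± 0.08, adjusted p 0.00020), and long libraries did not overlap short ones. Gstm1 went the opposite way, from 2409 ± 58.8 and 2227 ± 54.3 to 2081 ± 56.4 (-0.23 ± 0.06, adjusted p 0.0036). Among the Ugt2 genes, Ugt2b38 rose by 0.69 ± 0.10, Ugt2b35 by 0.54 ± 0.12 and Ugt2b1 by 0.47 ± 0.15 with long fragments, and Gstp2 fell by 0.75 ± 0.16 and Gstp1 by 0.15 ± 0.05. Without the medium-ramp polyA libraries Ugt2b1 (adjusted p 0.0648), Gstm1 (0.0524) and Gstp1 (0.2504) did not pass; without the fast-ramp ones Ugt2b1 (0.103) and Gstp1 (0.0521) did not, and without the slow-ramp ones Gstp1 (0.0509) did not.

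**Figure D3:**
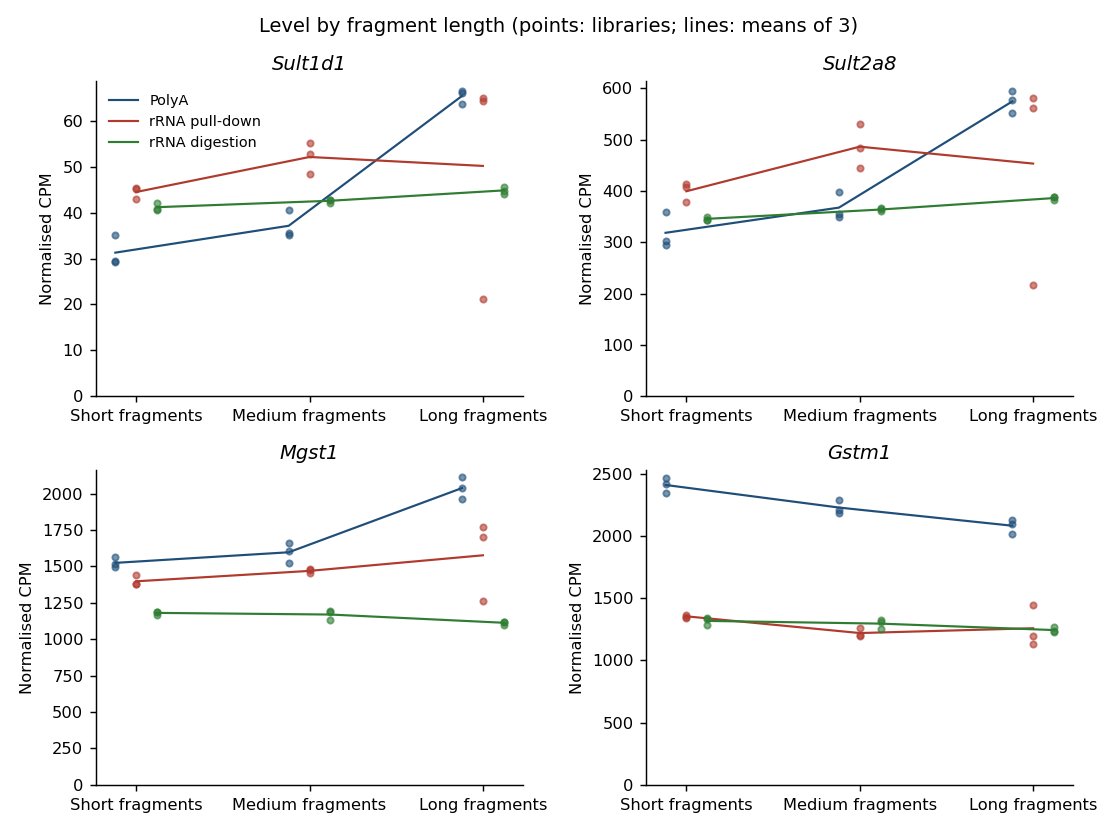
Normalised CPM of Sult1d1, Sult2a8, Mgst1 and Gstm1 by fragment length in the 27 selected liver libraries; points are libraries, lines join the means of 3 and colours are methods. PolyA points of Sult1d1 move from 29.3 to 35.2 with short fragments to 63.8 to 66.4 with long ones, digestion points stay at 40.6 to 45.6, and the low long-fragment pull-down point is the low-depth library.

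Across the 48 genes, the long-against-short difference in polyA libraries was lower the higher the GC content of the transcripts (Pearson r -0.86, Spearman rho -0.86). The 17 genes higher with long fragments had 33.5% to 47.8% GC, and the 9 lower ones 51.0% to 55.8%. In pull-down libraries r was -0.40 and rho -0.49 (-0.58 and -0.64 without the low-depth library), and in digestion libraries -0.05 and -0.10. The points are genes of the same libraries, many of them copies of one another, so these values describe these libraries. All genes with a GC value, 14407 in number, gave r -0.47 and rho -0.78 with polyA, r -0.29 and rho -0.60 with pull-down, and r -0.06 and rho -0.18 with digestion.

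**Figure D4:**
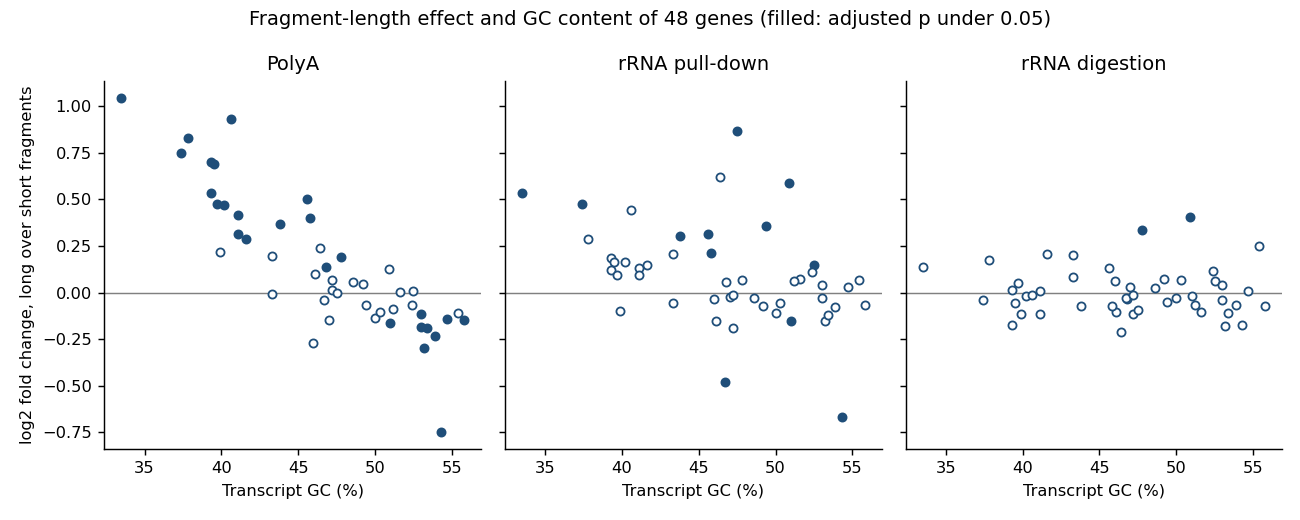
log2 fold change of long over short fragments against transcript GC content (%) for 48 genes in each method; filled points have an adjusted p under 0.05. The points fall with GC in polyA libraries (r -0.86), less so with pull-down (r -0.40), and with digestion r is -0.05.

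The length effect differed between methods, by an F-test of the interaction, in 9 of the 48 genes (27.8% of all genes): Sult1d1 (adjusted p 0.00018), Sult1b1 (0.0012), Ugt3a1 (0.0037), Ugt2b38 (0.0051), Gstp2 (0.0056), Ugt1a9 (0.0162), Mgst1 (0.0221), Gstm3 (0.0349) and Mgst3 (0.0473). Without the low-depth library 21 genes passed, beside 37.4% of all genes. Within pull-down 12 genes passed for long against short, 9 higher and 3 lower (35.7% of all genes, 20.6% higher and 15.1% lower), and without the low-depth library 23, 18 higher and 5 lower (42.9% of all genes). Fitted on the 9 pull-down libraries alone, 1 of the 48 genes passed, and it was lower, beside 6.23% of all genes. With library totals the pull-down split was 3 higher and 20 lower (8.79% and 37.9% of all genes), with the all-gene median at -0.18. With rRNA genes and Lars2 removed it was 7 and 5, beside 2481 and 2829 of all 14499 genes tested. Within digestion only Mgst3 (0.41 ± 0.09, adjusted p 0.0088) and Gsta2 (0.34 ± 0.07, adjusted p 0.0026) passed, both higher (6.07% of all genes, 4.3% higher and 1.77% lower). With library totals the digestion split was 2 higher and 1 lower, beside 515 and 330 of all 14454 genes tested. Mgst3 did not pass without the slow (adjusted p 0.0691), medium (0.108) or fast (0.103) ramp digestion libraries, nor Gsta2 without the fast ones (0.102). Fitted on the 9 digestion libraries alone, 17 genes passed, 7 higher and 10 lower (18.3% of all genes, 8.97% higher and 9.34% lower). Without the low-depth pull-down library, which enters the shared estimate of spread, 6 genes passed within digestion, beside 11.2% of all genes.

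In heart, most conjugation genes were far below liver. The comparison sets 1 heart library, with 22.3 M counts, against the 3 unselected liver libraries of the same batch, scaled among these 4 only, so it has values and no test. Of 45 genes with at least 10 counts in 1 of the 4 libraries, 39 differed by 4-fold or more, 1 higher and 38 lower in heart, beside 28.3% of 13065 genes (14.8% higher and 13.5% lower). The median log2 ratio was -4.52, against 0.03 over all genes. The 67 genes made up 0.0680% of heart counts outside rRNA genes and Lars2. In bulk tissue, fewer cells of a type and less RNA per cell cannot be told apart.

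All 17 Ugt genes measured were past 4-fold lower. Ugt2b5 had 9 counts in heart against 2387, 2586 and 2600 in liver, 0.232% of the liver level, and Ugt1a1 had 12 against 1338, 1407 and 1484, or 0.553%. Ugt3a1, with 0 heart counts, was at least 133-fold lower, set against a floor of 3 counts. Hepatocyte markers summed to 46.4 normalised CPM in heart and 13132 to 13302 in liver, or 0.350% of liver, while 12 of the 17 Ugt genes stood at 0.232% to 0.729%. The part of hepatocyte RNA in the Ugt counts of heart was not tested. Cardiomyocyte markers summed to 7023 in heart and to 0.0550 to 0.153 in liver, and Myh6, Tnni3, Myl2 and Nppa were at 0 in liver.

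The glutathione transferases were less uniform. Of 22 measured, 15 were past 4-fold lower, 1 higher and 6 within. Mgst3, a membrane-bound enzyme with glutathione peroxidase activity, had 392 counts in heart and 29, 32 and 39 in liver, or 13.4 against 1.74 ± 0.210 normalised CPM, 7.66-fold higher (95% counting interval 6.12 to 9.62). Gstm5 was 3.95-fold higher (2.71 to 5.83), just under the 4-fold line, and passed it when the third liver library was left out. Gsto1 (1.01-fold, 0.878 to 1.16) and Gstm2 (1.01-fold, 0.861 to 1.18) were at the liver level. Gsta4, which conjugates the lipid peroxidation product 4-hydroxynonenal, stood at 49.4% of liver, Gstm7 at 43.1% and Gstk1 at 38.3%. Gstm1, Gstp1 and Mgst1, the highest in liver, stood at 6.54%, 4.35% and 1.79%. Gstm3 had 1 count in heart against 441, 494 and 496 in liver, a ratio of 0.00136 (95% counting interval 3.4e-05 to 0.0076).

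All 6 Sult genes measured were past 4-fold lower: Sult2a8 stood at 0.458% of liver, Sult1a1 at 6.04% and Sult5a1 at 11.7%. Sult1d1, with 0 heart counts, was at least 83.0-fold lower, and Gsta2, also at 0, at least 113-fold lower. Along the rest of the pathway, 12 of 14 cofactor supply genes, 8 of 13 other conjugation enzymes, 8 of 10 phase I partners and 8 of 12 regulators were past 4-fold lower, with 0, 1, 1 and 0 past 4-fold higher. Of 11 genes for deconjugation and mercapturate steps 5 were past 4-fold lower and 2 higher.

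**Figure D5:**
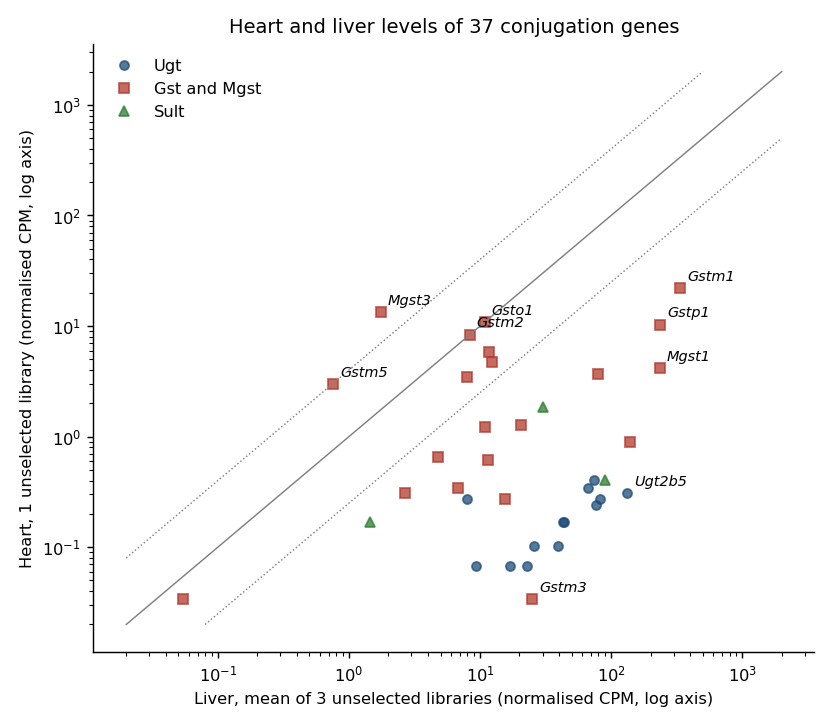
Normalised CPM of 37 conjugation genes detected in both tissues, heart (1 library) against liver (mean of 3 unselected libraries), on log axes; the solid line marks equal levels and the dotted lines 4-fold differences. Mgst3 lies above the upper dotted line, Gsto1 and Gstm2 on the line of equality, and the Ugt genes far below it.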

How the data were processed

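Expected counts per gene for 34 libraries were deposited by the authors; per the submitters' processing notes, Salmon 1.9.0, UMI-tools 1.1.1, R 4.4.0 and GRCm38 were used, with roles not given in the sources used here. Estimated counts split reads that fit several copies, which makes single values of near-identical genes uncertain. Symbols, coordinates and sequences came from GENCODE M21 (50896 of 51368 identifiers matched; 472 did not). Expected counts were rounded and tested with edgeR 4.0.16 (quasi-likelihood F-test, TMM, filterByExpr, R 4.3.3) over all genes with Benjamini-Hochberg adjustment, a call being an adjusted p under 0.05. Method and batch comparisons used all 33 liver libraries with ramp and length as covariates (15422 genes), and length and ramp comparisons the 27 selected ones (14454 genes). SE was the log2 fold change divided by the root of F. Normalised CPM used TMM factors. Heart folds of genes with 0 heart counts used a floor of 3 counts. Levels per kilobase used all exons, or the longest annotated transcript as an alternative. Counting intervals (95%) cover counting error only. On simulated counts, 40.3%, 94% and 100% of genes changed 1.5, 2 and 4-fold were recovered for polyA against unselected (14742 genes). The simulation gave all libraries the same mean profile and the same spread. Real unselected batch 1 libraries held 36229 to 38813 counts of the conjugation genes, against 414647 to 682297 with polyA. The simulated percentages can therefore overstate recovery in that comparison. DESeq2 1.42.0 was an alternative. The members and lists were chosen with earlier results of these data known. Genes given in full were, per comparison, up to 12 called genes with the largest change and at least 1 normalised CPM, and the highest gene of each family in unselected liver; others were chosen after their values were seen.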

Additional observations from a re-analysis of the deposited data

Results flagged for a closer look

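Of 60 groups of 4 to 10 libraries checked for a library far from the rest, 12 had one. Chance flags about 1 in 20 single groups, but these groups are genes of the same libraries. The count of 12 therefore cannot be set against that rate. In 11 of the 12 groups the library was the low-depth pull-down library with slow ramp and long fragments. It held the lowest pull-down value of Gsta3 (496 normalised CPM, others 773 to 902), Gstk1 (48.2), Gstz1 (282), Sult1a1 (127), Sult1d1 (21.2), Ugt1a1 (268), Ugt1a6a (72.7), Ugt2b5 (365) and Ugt3a2 (123). It held the highest value of Gstt1 (159) and Ugt1a7c (13.1). The remaining one was Ugt1a1 in the slow-ramp, long-fragment digestion library, at 297 normalised CPM.

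The effect of fragment length differed between methods, by the interaction test of edgeR, for Sult1d1 (adjusted p 0.000178), Sult1b1 (0.00119), Ugt3a1 (0.00373), Ugt2b38 (0.00513), Gstp2 (0.00564), Ugt1a9 (0.0162), Mgst1 (0.0221), Gstm3 (0.0349) and Mgst3 (0.0473). These were 9 of the 48 genes, beside 4022 of all 14454 genes tested. Sult1b1 averaged 11.7, 13.4 and 19.9 normalised CPM with short, medium and long fragments in polyA libraries and 12.6, 12.6 and 12.2 with digestion. Ugt3a1 averaged 59.7, 60.6 and 78.3 with polyA and 57.4, 55.1 and 54.1 with digestion.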

How the results depend on the processing

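Of 115 counts of called genes recomputed under an alternative, 95 stayed within 1.5 times the reported count and 20 did not; of values of single genes or sums of copies, 2169 kept direction and call or stayed within 1 SD, 128 lost the call, 88 gained it and 7 reversed, and 10 levels moved by more than 1 SD with the longest annotated transcript as the length. With library totals in place of TMM, 48 of 48 genes were called for polyA, pull-down and digestion against unselected, beside 94.8%, 95.2% and 98.2% of all genes. Under that scaling 19 were called for the length-by-method test and 23 for length within pull-down, beside 5936 and 6743 of all 14454 genes tested. Only the groups compared gave 13 for pull-down against unselected, 17 for length within digestion and 1 within pull-down. Without the low-depth library the counts were 21 for length by method, 23 within pull-down and 6 within digestion. Leaving out the libraries of 1 ramp gave 14 to 23 for length within polyA, 5 to 23 within pull-down and 0 to 1 within digestion. Of all genes, 14719 to 14871 tested, the same fits called 5506 to 6801, 2902 to 5936 and 297 to 388. PolyA against pull-down, each relative to the unselected libraries of its batch, gave 16. The cause of each was not tested.

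Summed with their copies, an alternative added after seeing the data, Ugt1a6a plus Ugt1a7c gave -0.0897, -0.13 and -0.54 for polyA, pull-down and digestion, and Ugt1a2 plus Ugt1a5 gave 0.14 for polyA against unselected, 0.30 for polyA against pull-down and 0.0076 for length within pull-down. Gstp2 gave -0.48 for polyA against pull-down relative to the unselected libraries.

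Replicate numbers of the unselected batches do not pair the libraries: same-numbered deviations correlated at -0.0012, -0.033 and -0.054. With the replicate block, 3 of the genes and 91 of all genes were called between batches, against 39 of all genes in the same 6 libraries without it.

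Low counts in unselected libraries (6 to 25 for Ugt1a8, 16 to 47 for Ugt1a2, 29 to 39 for Mgst3) limit these genes, and 1 heart library gives no replicate check.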

Other observations

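Gstp2, a close copy of Gstp1 with 39.7% of its 31-base stretches its own, scattered far more than its neighbour between preparations of the same RNA. In the 3 unselected liver libraries of batch 1 it had 84, 12 and 181 counts, while Gstp1 had 4729, 4378 and 4443. In polyA libraries Gstp2 averaged 24.5, 32.5 and 14.6 normalised CPM with short, medium and long fragments. Most of the members sit in clusters: 13 lie at chr5:86889767-87591594 (10 Ugt2 and 3 Sult1 genes), 9 Ugt1a genes at chr1:88055388-88220002, 8 Sult2a genes at chr7:13623967-14494230 and 7 Gstm genes at chr3:107895821-108044894 (GRCm38).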
